A study of Mus musculus with 6 samples.

Results

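The genes described here encode 10 glutathione transferases of the mouse, chosen by name with earlier results of these data known. They are the mu-class genes Gstm1, Gstm2, Gstm4 and Gstm5, the pi-class gene Gstp1 and the theta-class gene Gstt1. The omega-class gene Gsto1 and the microsomal genes Mgst1, Mgst2 and Mgst3 complete the 10. All belong to the 36047 genes to which the sequenced transcripts were assigned. Of the 10, 9 passed the filter on low counts that left 13451 genes for testing. RNA was measured by RNA-seq in wild-type MLE-12 cells, a murine lung epithelial line derived from a tumour of a mouse whose surfactant protein C promoter drives a viral large T antigen. In 3 libraries the cells had received cigarette smoke extract (CSE), at 5% and an optical density of 2.0, and in 3 libraries an equal volume of PBS. Treatment began when the cultures had reached 30% density and lasted 24 h in both groups.

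Glutathione transferases join the tripeptide glutathione to electrophilic compounds, among them aldehydes, epoxides and quinones such as those carried by tobacco smoke, so that the products can be exported from the cell. The mu, pi, theta and omega classes are soluble enzymes with related folds, while the microsomal enzymes are small membrane proteins of an unrelated family called MAPEG, which also makes leukotrienes and prostaglandins. Several of these genes are known targets of NRF2, a transcription factor that binds antioxidant response elements, and some xenobiotic enzymes are targets of the aryl hydrocarbon receptor, which binds xenobiotic response elements.

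The libraries held between 12093009 and 24050167 estimated counts in CSE and between 13647897 and 19486697 in PBS, and mitochondrially encoded genes took 2.47% to 2.89% of the assigned counts in CSE and 2.19% to 2.65% in PBS. Whether replicate libraries are separate cultures is not stated by any label, so the p-values reflect the spread among these libraries alone and that spread may be technical. In bulk RNA, fewer cells of a type and less RNA per cell cannot be told apart. The label of an epithelial line was borne out in part: over 6 epithelial markers, summed levels lay between 604 and 690 TPM (a level corrected for transcript length and library depth) in CSE and between 1162 and 1280 TPM in PBS, carried by Krt19 and Krt8, while over the 6 libraries Epcam averaged 1.95 TPM, Krt18 0.262 TPM and Cldn4 0.00895 TPM. Of the 4 epithelial markers tested, 3 fell. Of 6 alveolar type 1 markers, 5 fell, with sums of 621 to 676 TPM in CSE and 1018 to 1094 TPM in PBS, and of 7 alveolar type 2 markers 4 were tested and 1 fell, with sums of 31.1 to 37.5 TPM in CSE and 37.3 to 42.8 TPM in PBS and Sftpa1 at 0. The 4 club cell markers summed to at most 0.938 TPM in CSE and 1 TPM in PBS, with Scgb3a2 at 0. The 5 endothelial markers summed to at most 3.29 TPM in CSE and 2.8 TPM in PBS, with Cdh5 at 0. The 6 immune markers summed to at most 5.27 TPM in CSE and 6.2 TPM in PBS, with Adgre1 at 0, and no tested marker of these lists was called. The 4 ciliated cell markers, carried by Tubb4b, summed to 763 to 851 TPM in CSE and 764 to 836 TPM in PBS. The 5 fibroblast markers, carried by Dcn, summed to 478 to 545 TPM in CSE and 868 to 1126 TPM in PBS, with 1 of 4 tested markers higher and 2 lower. The 4 mesothelial markers summed to 60.8 to 69.1 TPM in CSE and 195 to 220 TPM in PBS, and 3 fell. For scale, 7.12% of all tested genes were called lower and 4.32% higher. The part of these marker changes in the results on glutathione transferases was not tested.

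The mu-class genes lie side by side, and their sequences decide how well reads can be told apart. All 7 of them occupy 149 kb of chromosome 3 (107895821 to 108044894, GRCm38), in the order Gstm5, Gstm7, Gstm6, Gstm3, Gstm2, Gstm1 and Gstm4, with Gstm5 on the plus strand and the other 6 on the minus strand. Over the 654 bases of their coding sequences, Gstm1 was 85.9% identical to Gstm2 and 80.1% identical to Gstm4, and it was 69.6% identical to Gstm5 over 672 aligned columns. Of the mu-class genes compared, Gstm3 was the closest to Gstm1, at 89.4%, and Gstm7 was 82.6% identical to it. The first 60 coding bases of Gstm1, Gstm2 and Gstm4, from the GENCODE transcripts, are shown because they carry this difference in small, with capitals where a base differs from Gstm1.
Gstm1 coding start, chromosome 3: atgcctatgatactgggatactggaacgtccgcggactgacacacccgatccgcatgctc
Gstm2 coding start, chromosome 3: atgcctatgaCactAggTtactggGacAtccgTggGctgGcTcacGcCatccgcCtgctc
Gstm4 coding start, chromosome 3: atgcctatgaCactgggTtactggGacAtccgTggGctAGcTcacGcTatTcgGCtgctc
Gstm2 differed from Gstm1 at 12 of these 60 bases and Gstm4 at 14. Reads made only of words that several genes hold are divided among those genes by the model behind the estimated counts. Of the 31-base words of the transcript examined for each gene, compared on both strands with all other genes in the files, 65.7% belonged to Gstm1 alone, 80.5% to Gstm2 alone, 96.6% to Gstm4 alone and 100% to Gstm5 alone. Gstm1 shared most words with the pseudogene Gstm2-ps1 (26.9%) and with Gstm3 (15.5%). Gsto1, Mgst1 and Mgst2 shared no word with another gene, Gstt1 shared 0.695% of its words and Mgst3 1.31%. Gstp1 had 32.5% of its words to itself, with 67.5% also present in its neighbour Gstp2 and 51.7% in the pseudogene Gstp-ps.

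The windows from 250 bases before to 50 bases after the start site are printed for the 3 genes that rose, Mgst1, Gstm1 and Gstp1, and for Gstm5, which was not called, from RefSeq on GRCm38.p6. Capitals mark the antioxidant response element core TGACNNNGC and the xenobiotic response element core GCGTG, each searched on both strands.
Mgst1, chr6:138140277-138140576, plus strand: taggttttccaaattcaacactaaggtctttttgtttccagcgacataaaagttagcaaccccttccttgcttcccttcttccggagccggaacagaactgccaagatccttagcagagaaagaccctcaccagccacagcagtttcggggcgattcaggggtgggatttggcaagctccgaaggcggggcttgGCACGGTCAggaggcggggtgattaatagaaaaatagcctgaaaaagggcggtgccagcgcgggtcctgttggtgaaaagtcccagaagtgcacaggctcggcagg
Gstm1, chr3:108017924-108018223, minus strand: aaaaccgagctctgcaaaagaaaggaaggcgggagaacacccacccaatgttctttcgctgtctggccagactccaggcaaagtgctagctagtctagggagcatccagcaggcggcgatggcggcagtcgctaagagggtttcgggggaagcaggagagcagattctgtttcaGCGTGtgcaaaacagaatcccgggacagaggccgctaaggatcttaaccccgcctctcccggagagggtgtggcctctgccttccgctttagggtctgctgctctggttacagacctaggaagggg
Gstp1, chr19:4037863-4038162, minus strand: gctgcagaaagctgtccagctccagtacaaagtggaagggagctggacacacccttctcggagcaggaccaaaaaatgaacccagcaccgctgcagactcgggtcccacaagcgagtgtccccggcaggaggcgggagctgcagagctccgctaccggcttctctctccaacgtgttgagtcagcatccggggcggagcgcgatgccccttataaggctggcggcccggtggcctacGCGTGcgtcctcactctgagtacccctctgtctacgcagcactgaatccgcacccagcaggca
Gstm5, chr3:107895604-107895903, plus strand: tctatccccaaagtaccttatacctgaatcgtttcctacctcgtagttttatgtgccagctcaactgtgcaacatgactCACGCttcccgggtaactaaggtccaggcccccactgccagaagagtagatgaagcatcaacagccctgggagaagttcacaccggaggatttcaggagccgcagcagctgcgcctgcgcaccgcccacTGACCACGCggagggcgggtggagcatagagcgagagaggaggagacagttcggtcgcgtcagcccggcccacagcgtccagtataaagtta
All 10 genes had at least 1 such window. With the start base counted as position 0, Mgst1 held an antioxidant core on the minus strand that begins at position -56, and its second window, farther into the gene, held neither core. Position 0 of the first Mgst1 window is 138140527. The transcript Mgst1-201 starts at 138140316, so the antioxidant core lies 3′ of that start. Gstm1 held a xenobiotic core at position -76 and Gstp1 one at position -13. Gstm5 held an antioxidant core at position -42 and xenobiotic cores at positions -171 and -38, and the last of these overlaps the antioxidant core. Most of the Gstm5 TPM was assigned to Gstm5-204, which starts at 107896247, outside this window. That transcript held 61.2%, 58.2% and 56% of it in the CSE libraries and 62%, 62.8% and 53.1% in the PBS libraries. Among the other members, Mgst3 held a xenobiotic core at position -22, and no match was present in the windows of Gstm2, Gstm4, Gstt1, Gsto1 or Mgst2. Over all 32851 RefSeq windows, 12.4% held the antioxidant core and 32.4% the xenobiotic core. A match is a description of the letters in these windows. Sequences that depart from either core by any fixed letter were not searched, so a window without a match may still hold a variant of an element.

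CSE was compared with PBS to ask which transferase genes the epithelial cells express differently under smoke extract. Mgst1, Gstm1 and Gstp1 were higher in CSE, and no member was lower. Their changes lay between 1.42-fold and 1.92-fold. Of the 9 tested members, 3 rose, 6 were not called and 0 fell, where 11.4% of all tested genes were called, 4.32% higher and 7.12% lower. A call is an adjusted p below 0.05 from the quasi-likelihood test of edgeR, with Benjamini-Hochberg adjustment over every tested gene. The median log2 change of the 9 was 0.25, against 0.01 over all tested genes. In 5 of the 9, every CSE library had a higher TPM than every PBS library, a pattern found in 7.89% of tested genes, and in 4 the groups overlapped. Groups lay apart in 27.2% of tested genes in either direction, with CSE lower in 19.3%. Over all genes 581 rose and 958 fell. The split was 944 and 900 once trends with GC content and length had been taken out, and 224 and 774 with limma on log2(TPM + 1).

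**Figure D1:**
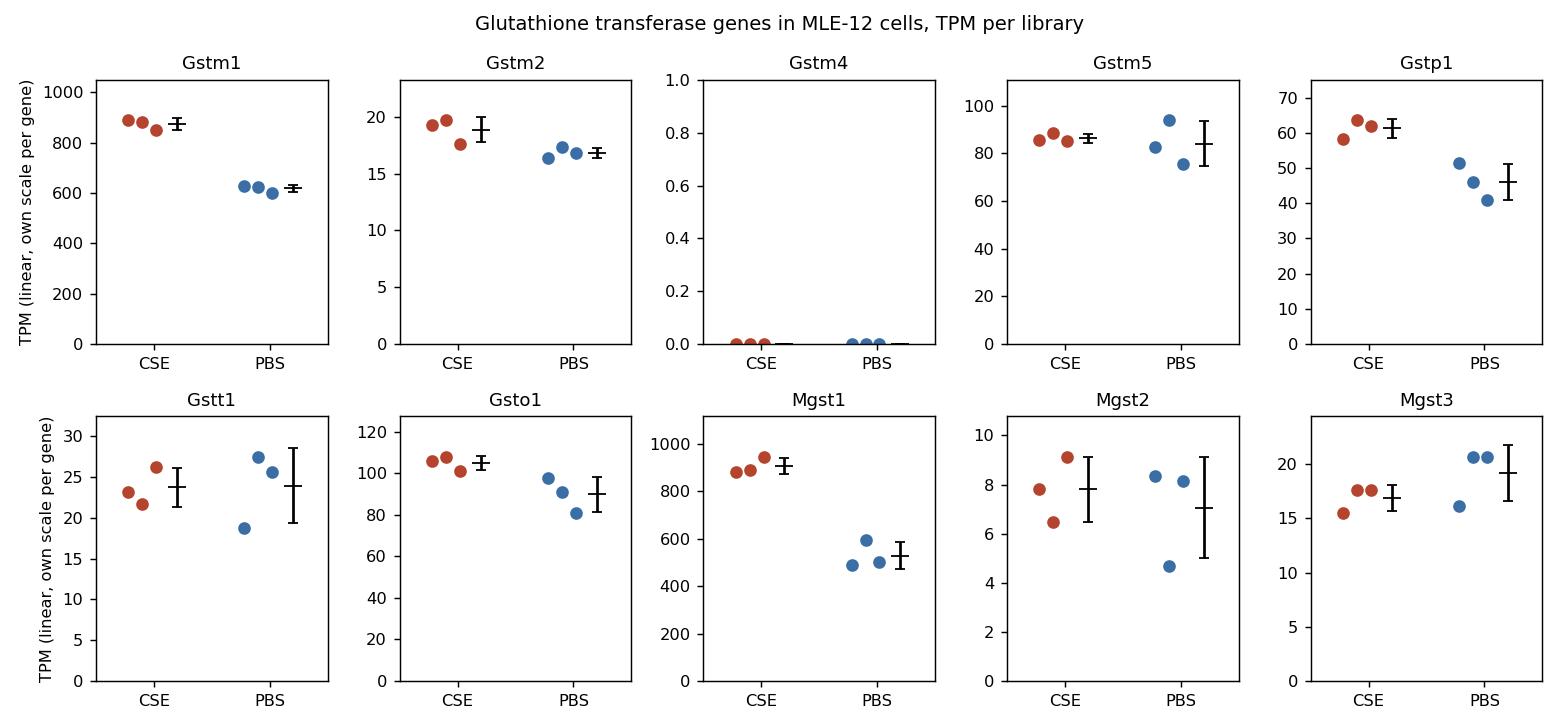
TPM of the 10 glutathione transferase genes (vertical axis, linear, with its own scale for each gene) in the 3 CSE and 3 PBS libraries, with points for libraries and bars for the mean and SD. The groups lie apart for Gstm1, Gstm2, Gstp1, Gsto1 and Mgst1, overlap for Gstm5, Gstt1, Mgst2 and Mgst3, and Gstm4 is at 0 in every library.

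Mgst1, the microsomal transferase that also reduces lipid hydroperoxides in membranes (ENSMUSG00000008540.11, chromosome 6, 138140316 to 138156755), showed the largest fitted change of the 9 tested members. It had 882, 891 and 946 TPM in the CSE libraries, against 488, 594 and 503 TPM in the PBS libraries. The lowest CSE library lay well above the highest PBS library. The means were 906 ± 34.7 TPM in CSE and 528 ± 57.5 TPM in PBS (SD, n = 3 each), on 22166 estimated counts in CSE and 11134 in PBS. Its log2 change was 0.94 ± 0.09 (SE), with a 95% interval of 0.74 to 1.15, a 1.92-fold rise (edgeR adjusted p = 9.26e-05). Log2 and fold changes from edgeR come from scaled counts, and the TPM means of the 3 called members lie closer together than these folds. With limma on log2(TPM + 1), the log2 change was 0.78 for Mgst1, 0.50 for Gstm1 and 0.41 for Gstp1.

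Both main transcripts of Mgst1 were higher in every CSE library than in any PBS library. Mgst1-207 held 59.4%, 60.2% and 60.2% of the gene's TPM in the CSE libraries and 58.6%, 63.5% and 61.1% in the PBS libraries. Its level was 524, 536 and 570 TPM in the CSE libraries, against 285, 377 and 307 TPM in the PBS libraries. Mgst1-201, which starts 5′ of it, had 348, 323 and 351 TPM in the CSE libraries, against 190, 172 and 147 TPM in the PBS libraries. Mgst1-203, which begins inside the second RefSeq window (chr6:138141337-138141636), averaged 1.06 ± 0.391 TPM in CSE and 1.5 ± 0.563 TPM in PBS, so nearly all Mgst1 RNA was assigned to transcripts that start near the first window. Reads are divided among transcripts by a model, and transcript values are given without a test.

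The other microsomal genes did not pass the test. Mgst3, an enzyme of the same family with glutathione transferase and peroxidase activity (chromosome 1, 167371966 to 167393841), had 15.5, 17.6 and 17.6 TPM in the CSE libraries, against 16.2, 20.7 and 20.7 TPM in the PBS libraries, and the groups overlapped. Its log2 change was -0.08 ± 0.13, with an interval of -0.36 to 0.21 (adjusted p = 0.765). Mgst2, which can also form leukotriene C4 (chromosome 3, 51660360 to 51682677), was the lowest of the tested members, with 7.82, 6.47 and 9.13 TPM in the CSE libraries, against 8.34, 4.68 and 8.13 TPM in the PBS libraries. It rested on 127 counts in CSE and 106 in PBS, and its log2 change of 0.24 ± 0.29 had the widest interval of the 9, -0.40 to 0.88. The lowest library was PBS replicate 2 and the highest was CSE replicate 3, and the groups overlapped. The fitted value of each of these 2 genes turned sign without a single library, to 0.01 for Mgst3 without CSE replicate 1 and to -0.033 for Mgst2 without CSE replicate 3.

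Gstm1, the main liver form of the mu class (ENSMUSG00000058135.12, chromosome 3, 108012255 to 108017973), was the other abundant member. It had 890, 884 and 849 TPM in the CSE libraries, against 630, 623 and 602 TPM in the PBS libraries. Replicates lay close together and the groups were far apart. The means were 874 ± 22.1 TPM in CSE and 618 ± 14.7 TPM in PBS (SD, n = 3 each), on 29623 counts in CSE and 18481 in PBS. The log2 change was 0.63 ± 0.08, with an interval of 0.47 to 0.80, a 1.55-fold rise (edgeR adjusted p = 0.000344).

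Within Gstm1, the full-length coding transcript was the one whose groups lay apart. Gstm1-201 had 791, 694 and 682 TPM in the CSE libraries, against 483, 506 and 459 TPM in the PBS libraries, with no overlap. The short processed transcript Gstm1-204, which has no annotated protein, had 90.3, 177 and 154 TPM in the CSE libraries, against 141, 105 and 138 TPM in the PBS libraries. These ranges overlapped, and the lowest and highest values were both in CSE. Gstm1-201 took 88.9%, 78.5% and 80.4% of the gene's TPM in the CSE libraries and 76.7%, 81.2% and 76.2% in the PBS libraries, so its share overlapped between groups. With only protein-coding transcripts counted, the log2 change of Gstm1 was 0.66 ± 0.08 (edgeR adjusted p = 0.000693).

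**Figure D2:**
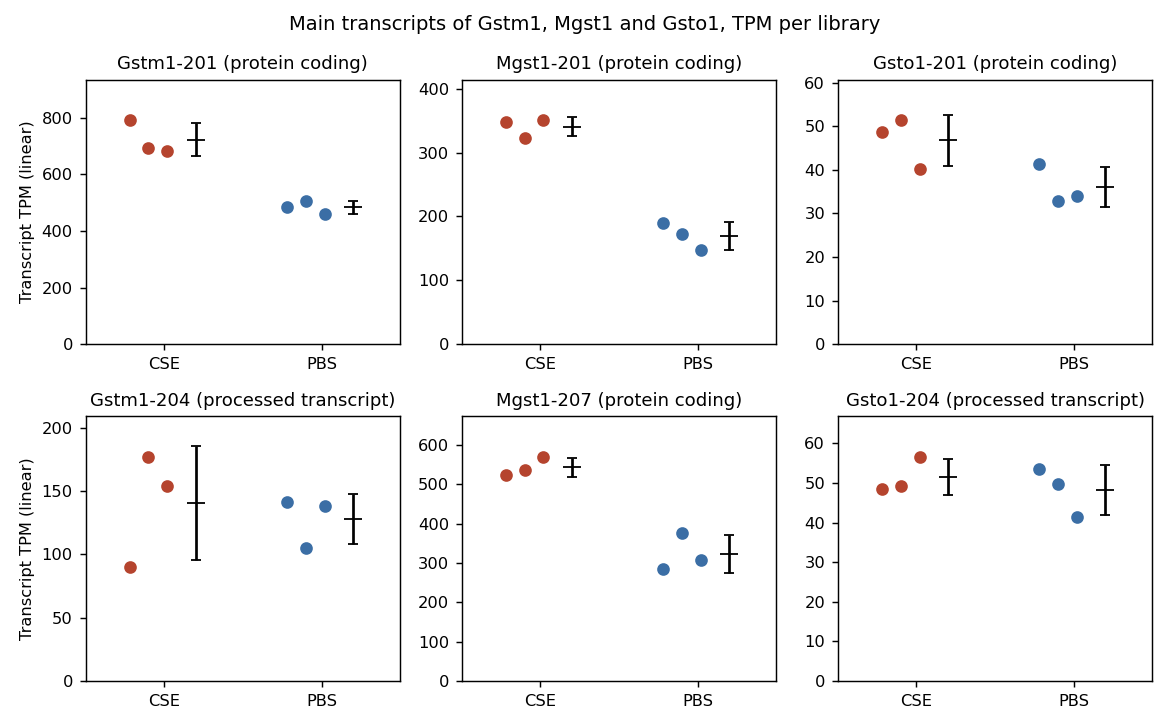
TPM (vertical axis, linear) of the main transcripts of Gstm1, Mgst1 and Gsto1 in the 3 CSE and 3 PBS libraries, with points for libraries and bars for the mean and SD. Gstm1-201, Mgst1-201 and Mgst1-207 lie apart between groups, while Gstm1-204, Gsto1-201 and Gsto1-204 overlap.

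The neighbours of Gstm1 in the cluster were far lower, and those tested were not called. Gstm5, the mu-class gene least like Gstm1 in coding sequence among those compared (chromosome 3, 107895821 to 107898686), had 85.5, 88.4 and 85 TPM in the CSE libraries, against 82.8, 93.9 and 75.4 TPM in the PBS libraries. The CSE values fell inside the PBS range, and the log2 change was 0.15 ± 0.10 with an interval of -0.07 to 0.37 (adjusted p = 0.389). Gstm2, whose human counterpart is the muscle form (chromosome 3, 107981702 to 107986453), had 19.3, 19.7 and 17.6 TPM in the CSE libraries, against 16.4, 17.3 and 16.8 TPM in the PBS libraries. The groups lay apart by a small gap, and the log2 change of 0.25 ± 0.11, with an interval of 0.00 to 0.50, was not called (adjusted p = 0.184). Gstm6, which lies between these genes, had 7.12, 7.33 and 7.37 TPM in the CSE libraries, against 5.66, 5.12 and 5.16 TPM in the PBS libraries. Its groups lay apart, and its log2 change of 0.58 ± 0.19, with an interval of 0.17 to 0.99, was close in size to that of Gstm1 but was not called (edgeR adjusted p = 0.0727). Gstm6 was called in 1 of 17 alternatives, without PBS replicate 1 (log2 change 0.69, edgeR adjusted p = 0.0441). In the other 16 it was not called, with an edgeR adjusted p of 0.219 without CSE replicate 3. Over the 17 its log2 change lay between 0.39 and 0.69. Of the words of its transcript, 17.6% were shared with other genes. Gstm7 averaged 19.3 ± 1.58 TPM in CSE and 18.1 ± 0.537 TPM in PBS and was not called, and Gstm3, below the count filter, averaged 0.396 ± 0.131 TPM in CSE and 0.278 ± 0.0939 TPM in PBS.

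Gstm4, the gene next to Gstm1 (chromosome 3, 108040408 to 108044894), received 0 counts in all 6 libraries, over all of its 3 annotated transcripts. With 96.6% of its words found in no other gene, its reads would be separable from those of Gstm1. A count of 0 allows up to 3 counts, or between 0.126 and 0.25 CPM (counts scaled to library size) in the CSE libraries and between 0.155 and 0.221 CPM in the PBS libraries, so Gstm4 was not detectable at this depth in either group and no fold change is given.

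Summed over the 7 mu-class genes, the level was 1022, 1017 and 979 TPM in the CSE libraries, against 753, 759 and 717 TPM in the PBS libraries. Gstm1 made up 87%, 86.9% and 86.7% of this sum in the CSE libraries and 83.6%, 82.2% and 83.9% in the PBS libraries, and the groups did not overlap. Without Gstm1 the sum was 132 ± 1.41 TPM in CSE and 125 ± 10 TPM in PBS (SD, n = 3 each), with overlap. When the 7 genes were counted as 1, which removes any sharing of reads among them, the log2 change was 0.58 ± 0.08 (edgeR adjusted p = 0.000657). The pseudogene Gstm2-ps1 was not included in this sum, and it received 0 counts in CSE and 1 in PBS.

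Gstp1, the pi-class enzyme that is abundant in airway epithelium and conjugates acrolein and other reactive aldehydes (ENSMUSG00000060803.6, chromosome 19, 4035407 to 4037985), was higher in CSE by a smaller margin. It had 58.3, 63.6 and 61.8 TPM in the CSE libraries, against 51.3, 45.9 and 41 TPM in the PBS libraries. The groups lay apart, and the 3 PBS libraries were more spread than the 3 CSE libraries. The means were 61.3 ± 2.66 TPM in CSE and 46.1 ± 5.18 TPM in PBS (SD, n = 3 each), and the log2 change was 0.50 ± 0.13 with an interval of 0.21 to 0.79, a 1.42-fold rise (edgeR adjusted p = 0.0336). The call was lost when any 1 of 4 libraries was left out, at an adjusted p of 0.115 for CSE replicate 2, 0.14 for CSE replicate 3, 0.0695 for PBS replicate 2 and 0.13 for PBS replicate 3, and at 0.0626 with only protein-coding transcripts counted. The counts are uncertain because Gstp1 shares words with Gstp2, whose transcripts received 2 counts in CSE and 15 in PBS, and with Gstp-ps, which received 6 in CSE and 9 in PBS. With the 3 pi-class genes, Gstp-ps not included, counted as 1, the log2 change was 0.48 ± 0.13 (edgeR adjusted p = 0.0359), and Gstp1 made up 99.2%, 99.1% and 99.7% of the pi-class TPM in the CSE libraries and 98.3%, 96.5% and 92.5% in the PBS libraries.

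Gsto1, the omega-class enzyme that reduces dehydroascorbate and glutathionylated proteins (chromosome 19, 47854970 to 47864790), came after Mgst1 and Gstm1 in level. It had 106, 108 and 101 TPM in the CSE libraries, against 97.8, 91 and 80.8 TPM in the PBS libraries. The groups lay apart, but the log2 change of 0.33 ± 0.11, with an interval of 0.10 to 0.57, missed the threshold (edgeR adjusted p = 0.0678). It passed with DESeq2 (adjusted p = 0.0437), without a filter on low counts (0.00475) and without PBS replicate 1, when the log2 change was 0.47 ± 0.08 (edgeR adjusted p = 0.00559). The coding transcript Gsto1-201 averaged 46.8 ± 5.86 TPM in CSE and 36.1 ± 4.62 TPM in PBS, and the processed transcript Gsto1-204 averaged 51.4 ± 4.54 TPM in CSE and 48.2 ± 6.28 TPM in PBS. Both overlapped between groups.

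Gstt1, a theta-class enzyme that acts on small halogenated compounds and epoxides (chromosome 10, 75783813 to 75798584), did not pass the test. It had 23.2, 21.7 and 26.3 TPM in the CSE libraries, against 18.8, 27.5 and 25.6 TPM in the PBS libraries, and the PBS libraries spanned the CSE range. Its log2 change was 0.11 ± 0.14, with an interval of -0.20 to 0.42 (adjusted p = 0.67), and turned to -0.012 without CSE replicate 3.

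**Figure D3:**
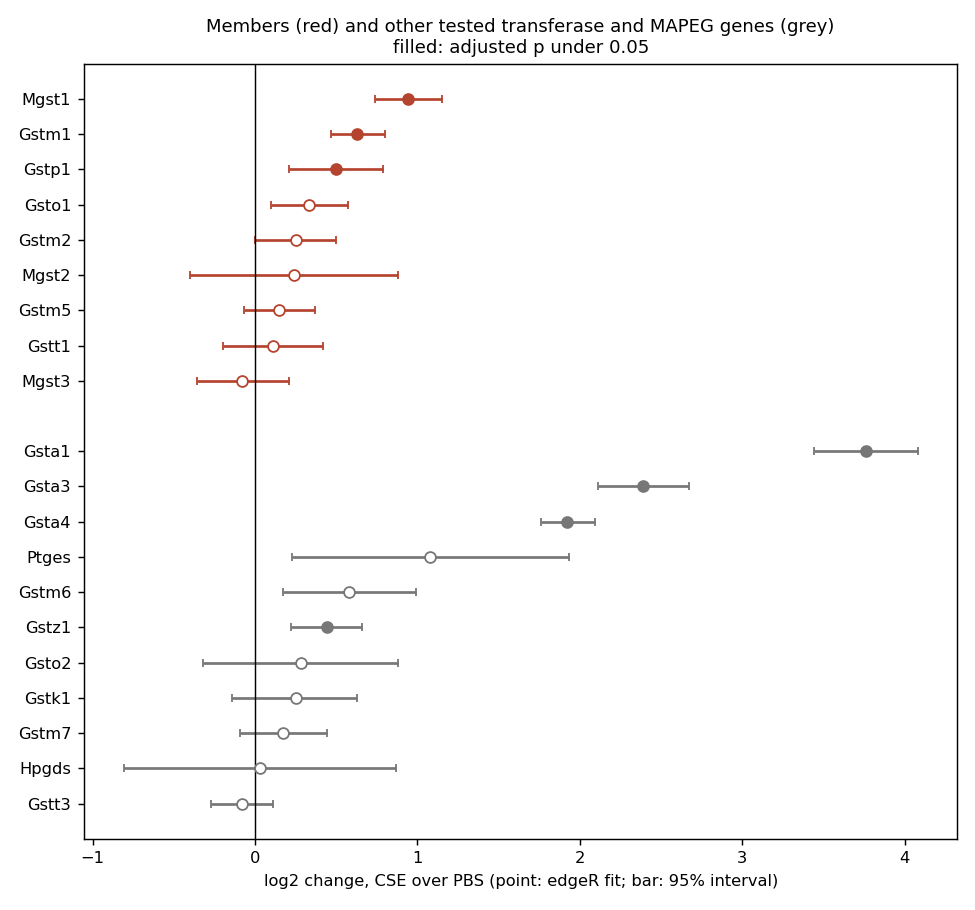
Log2 change of CSE over PBS (horizontal axis) from edgeR's fit, with 95% intervals, for the 9 tested members in red and 11 other tested transferase and MAPEG genes in grey, with filled points at an adjusted p under 0.05. Among the members, the intervals of Mgst1, Gstm1 and Gstp1, which are filled, and of Gsto1, which is open, lie above 0, and that of Gstm2, also open, starts at 0.00. Among the other genes, so do those of Gsta1, Gsta3, Gsta4 and Gstz1, which are filled, and of Gstm6 and Ptges, which are open.

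Set in order of level, Gstm1 and Mgst1 were far above the rest. They ranked 177 and 189 by mean TPM among the 36047 genes, and together they held 84.9%, 84.5% and 84.9% of the summed TPM of the 10 members in the CSE libraries and 79.3%, 80.2% and 80.5% in the PBS libraries. The sum itself was 2100 ± 12.9 TPM in CSE and 1434 ± 75.6 TPM in PBS (SD, n = 3 each). In CSE the means followed the order Mgst1, Gstm1, Gsto1, Gstm5, Gstp1, Gstt1, Gstm2, Mgst3, Mgst2 and Gstm4, and the ranges of the neighbours Mgst1 and Gstm1, and of Gstm2 and Mgst3, overlapped. In PBS the order was Gstm1, Mgst1, Gsto1, Gstm5, Gstp1, Gstt1, Mgst3, Gstm2, Mgst2 and Gstm4, where Gstm1 was above Mgst1 in every library and the ranges of Gsto1 and Gstm5, of Gstt1 and Mgst3, and of Mgst3 and Gstm2 overlapped. Mgst1 thus stood level with Gstm1 in CSE and below it in PBS.

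The sizes of response were compared in 4 pairs of members through the ratio of their TPM in each library. The ratio of Mgst1 to Gstm1 was 0.991, 1.01 and 1.11 in the CSE libraries, against 0.774, 0.953 and 0.836 in the PBS libraries, a log2 difference of 0.28. The ratio of Mgst1 to Mgst3 was 56.8, 50.5 and 53.6 in the CSE libraries, against 30.1, 28.6 and 24.3 in the PBS libraries, a log2 difference of 0.96. Within the mu class, the ratio of Gstm1 to Gstm5 was 10.4, 10 and 9.98 in the CSE libraries, against 7.61, 6.64 and 7.98 in the PBS libraries, and that of Gstm1 to Gstm2 was 46, 44.9 and 48.2 in the CSE libraries, against 38.3, 36 and 35.7 in the PBS libraries. For all 4 ratios, the lowest CSE library lay above the highest PBS library. Each pair set a member with a larger fitted change over one with a smaller change, with those changes known. The higher ratios in CSE therefore restate the changes given above and are no separate evidence. The two-sided exact permutation p was 0.1 for each pair (0.1 after Benjamini-Hochberg adjustment over the 4 pairs), which is the smallest that 3 against 3 libraries allow.

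Other genes of glutathione conjugation were also called higher. Of 20 listed transferase and MAPEG genes outside the 10, 19 were matched and 11 were tested. Of these, 4 rose, 0 fell and 7 were not called, with a median log2 change of 0.44. Among all tested genes, 4.32% were called higher and 7.12% lower. The 3 largest rises were those of the alpha class. Gsta4, which handles the lipid aldehyde 4-hydroxynonenal and shares no 31-base word with other genes, had 285 ± 6.87 TPM in CSE and 80.4 ± 6.05 TPM in PBS (SD, n = 3 each), a 3.8-fold rise with a log2 interval of 1.76 to 2.09 (edgeR adjusted p = 1.08e-07). No test of its response against that of a member was run. Gsta3 averaged 23.2 ± 1.24 TPM in CSE and 4.35 ± 0.252 TPM in PBS, and Gsta1, with 92.2% of its words shared, 57 ± 4.41 TPM in CSE and 4.9 ± 0.147 TPM in PBS. Per length, Gstm1 and Mgst1 remained the more abundant RNAs in both groups. Gstz1, the zeta-class enzyme of tyrosine breakdown, averaged 28.8 ± 3.86 TPM in CSE and 22.1 ± 2.46 TPM in PBS, and rose 1.36-fold (edgeR adjusted p = 0.0151). The call of Gstz1 was lost in 5 of 18 alternatives, at an adjusted p of 0.114 with limma on log2(TPM + 1), 0.112 on log2(TPM + 0.1), and, with edgeR, 0.0639 when CSE replicate 1 was left out, 0.0537 for CSE replicate 2 and 0.0645 for PBS replicate 3.

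Among 29 genes that supply glutathione or handle its conjugates, 22 were tested, 8 rose, 1 fell and 13 were not called, with a median log2 change of 0.18. The cystine carrier Slc7a11 had 15.5 ± 1.38 TPM in CSE and 5.24 ± 0.631 TPM in PBS, and its partner chain Slc3a2 478 ± 26.8 TPM in CSE and 360 ± 10.7 TPM in PBS. Gclm, which encodes the regulatory chain of glutamate-cysteine ligase, averaged 1270 ± 40.8 TPM in CSE and 523 ± 43.9 TPM in PBS. Abcc4, an exporter of organic anions, averaged 24.4 ± 2.78 TPM in CSE and 16.5 ± 1.8 TPM in PBS, and Abcc5, an exporter of the same family and the single gene of the list called lower, averaged 107 ± 12.1 TPM in CSE and 131 ± 12.2 TPM in PBS. Its TPM ranges overlapped, and its call was lost with an effective length offset (log2 change -0.22, edgeR adjusted p = 0.15) and in both limma fits to TPM (log2 change -0.30 in each, adjusted p = 0.128 with a pseudocount of 1 and 0.132 with 0.1). Over all tested genes, 4.32% were called higher and 7.12% lower. Abcc5 was named after its values were seen.

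The genes whose profiles over the 6 libraries were most like those of Mgst1 and Mgst3, the members with the highest and lowest fitted change, were found by the root mean square difference of mean-centred log2 CPM. For Mgst1 these were Fas (0.0638), Ptprr (0.0725) and Rgcc (0.0894). Fas, which encodes a death receptor, had 55.5, 54 and 57.3 TPM in the CSE libraries, against 31.8, 37 and 29.4 TPM in the PBS libraries, so that PBS replicate 2 was the highest PBS library for Fas as for Mgst1. For Mgst3 they were Zfp35 (0.0435), Mpst (0.0485) and Sfi1 (0.0487), none of which was called. These genes were picked from 9422 for likeness over the same libraries. Likeness in library order and in calls follows largely from that choice and is no separate evidence.

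**Figure D4:**
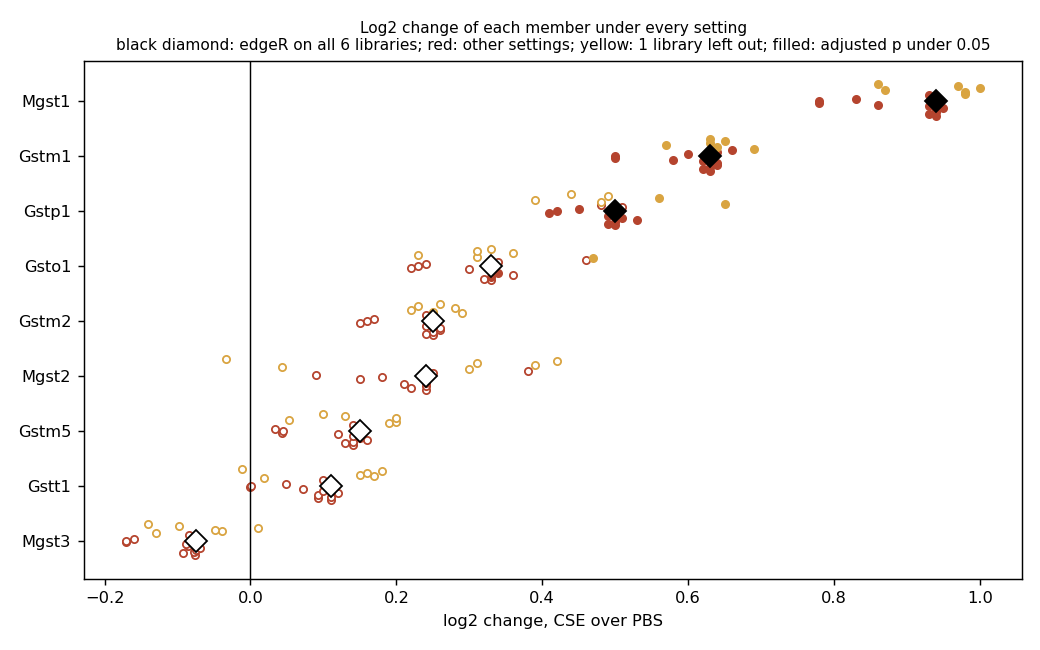
Log2 change of CSE over PBS (horizontal axis) of the 9 tested members under every setting, with black diamonds for edgeR on all 6 libraries, red points for other settings, yellow points for fits without 1 library and filled symbols at an adjusted p under 0.05. Mgst1 (0.78 to 1) and Gstm1 (0.5 to 0.69) are filled under every setting shown, Gstp1 is filled in part, and Gstt1, Mgst2 and Mgst3 have points on both sides of 0.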

How the data were processed

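PolyA RNA of MLE-12 cells was sequenced in 3 CSE and 3 PBS libraries, grouped by their titles. The extraction protocol in the labels names lung tissue, although the samples are labelled as a cell line. For 118489 transcripts the deposited files hold an estimated count and a TPM, per the file headers. The estimated count is a read number that the authors' software divides among compatible transcripts by a model. TPM, as the authors deposited it, divides that number by effective length and gives every library an equal total, so depth is lost. Without roles, the submitters' processing notes list FastQC 0.12.1, fastp 0.20.1, kallisto 0.46.2, DESeq2 1.40.2 and GRCm38. The sources used here do not name the transcript index or the strand setting.

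Transcripts were matched by identifier to GENCODE vM21 on GRCm38, which held 116816 (98.6%), and the other 1673 were left out. Both values were summed over each of 36047 genes and the counts were rounded. Genes were filtered with filterByExpr (minimum count 10), scaled by TMM (factors 0.976 to 1.03) and compared by the quasi-likelihood test of edgeR, two-sided, with treatment as the only factor, Benjamini-Hochberg adjustment over all tested genes and a threshold of 0.05. Replicate libraries differed beyond sampling noise, with a chi-square of 5.61 to 17.7 per degree of freedom. Intervals cover counting and replicate error of the model only, and the floor of 3 counts covers counting error only. Words of 31 bases were compared with the transcripts of all other genes. Coding sequences were aligned with Biopython.

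The genes and lists were chosen with earlier results of these data known. The text names all 10 members, the 4 genes of smallest p in each of the lists of other transferase and MAPEG genes and of glutathione supply and mercapturate genes, and listed genes that share over 50% of their words with a member (Gstp2), and 3 genes of smallest profile difference for 2 members, among genes averaging 5 TPM or more that are not gene models or pseudogenes. Values of Gstm3, Gstm6 and Gstm7 are given because they complete the mu cluster. Those of Gstp-ps and Gstm2-ps1 are given because they share words with Gstp1 and Gstm1. 1 listed symbol, Gsta13, had no match in the annotation. The value of 1 marker gene is not reported here. Other settings tried were DESeq2, limma-voom, scaling by RLE or by library size, no filter, a minimum mean of 5 CPM, an effective length offset, limma on log2(TPM + 1) and log2(TPM + 0.1), removal of GC and length trends by loess (span 0.5), the replicate number as a block, protein-coding transcripts only, mu-class or pi-class genes summed, and each library left out in turn. Software was Python 3.11.15 with Biopython 1.88, matplotlib 3.10.9, SciPy 1.17.1 and pandas 2.3.3, and R 4.3.3 with limma 3.58.1, edgeR 4.0.16 and DESeq2 1.42.0.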

Additional observations from a re-analysis of the deposited data

How the results depend on the processing

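Mgst1 (18 alternatives) and Gstm1 (19) kept their direction and their call under each alternative run, with adjusted p-values up to 0.00128 and 0.00369. The 19 for Gstm1 include the mu-class sum and those for Gstp1 the pi-class sum, neither of them a fit of the gene alone. Gstp1 kept its direction in all 19 and its call in 13; the call was lost with the replicate number as a block (0.51, adjusted p = 0.0798), with protein-coding transcripts only (0.48) and without 4 single libraries, where the log2 change over all fits without a library lay between 0.39 and 0.65. Gsto1 gained a call in 3 of 18. Values near 0 changed sign for Gstt1 with limma on log2(TPM + 1) (-0.00016) and without CSE replicate 3 (-0.012), for Mgst2 without CSE replicate 3 (-0.033) and for Mgst3 without CSE replicate 1 (0.01). Without 1 library their ranges were -0.012 to 0.18 for Gstt1, -0.033 to 0.42 for Mgst2 and -0.14 to 0.01 for Mgst3. Mgst2 had no value with the minimum of 5 CPM. The 3 members called became 2 to 4, the 4 other transferase genes 3 to 5 and the 9 glutathione supply genes 6 to 11. Over all genes, the 1539 called became 998 with limma on log2(TPM + 1), 985 on log2(TPM + 0.1), 1022 with the replicate block and 837 to 1941 without 1 library, the lowest when CSE replicate 3 was left out, with 859 when CSE replicate 2 and 963 when PBS replicate 3 was left out. The largest number called was 2197, of 22809 genes tested with no filter on low counts. Both limma fits to TPM tested 12474 genes. Without PBS replicate 1 the higher and lower genes numbered 967 and 974. The cause of these shifts was not tested. Same-numbered libraries did not deviate together (correlations of -0.124, 0.00608 and -0.0594). No label says that the numbers pair the samples, and these correlations cannot show whether cultures were handled in parallel. Mgst2 rested on 26 to 55 counts per library in CSE and 28 to 48 in PBS.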
